A study of Mus musculus with 11 samples.

Results

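Transcripts of the L1 and NCAM families, cell adhesion molecules best known from neurons, were followed in mouse bone marrow LSK cells. LSK cells are lineage-negative cells that carry cKit and Sca-1, the marrow fraction in which stem cells and multipotent progenitors lie. The members were taken by gene symbol, 6 of the 55291 symbols in the count table: Chl1, L1cam, Nrcam and Nfasc of the L1 family, and Ncam1 and Ncam2. They were chosen from measured values of these libraries, because Chl1 was raised in Phf6 knockout and Ncam1 in Phf6 R274X cells, and the 4 relatives were added by family. The values of Chl1 in every comparison with the knockout, and of Ncam1 in every comparison with R274X cells, are therefore given as a description with no test. All other values of the members were read with the test.

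The libraries are given as coming from individual C57BL/6 mice. There were 4 wild-type mice (WT), 3 mice labelled Phf6 knock out (KO) and 4 mice labelled Phf6R274X Tg (Tg). The labels state no treatment of the mice. They give neither the design of the knockout allele nor the promoter of the transgene, nor ages or sexes. Phf6, on the X chromosome, encodes a chromatin protein with plant homeodomain-like zinc fingers, and R274X is a stop codon in it.

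L1 family proteins cross the membrane and carry immunoglobulin and fibronectin type III domains outside the cell, with a short tail that binds ankyrin and so the spectrin skeleton. NCAM proteins share the same kinds of domains, bind each other between cells and can carry polysialic acid, which weakens adhesion. CHL1 and L1 guide axons, partly as co-receptors with neuropilins, and NrCAM and neurofascin hold channels at nodes of Ranvier. Human NCAM1 is CD56, the marker of human NK cells that also appears on some myeloid leukaemias, whereas mouse NK cells lack it.

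The stretch of coding sequence around the ankyrin-binding motif is shown because it marks the 4 L1 genes as 1 family and sets Chl1 apart within it. The sequences are from GENCODE M21 transcripts (GRCm38) on the coding strand, and capitals mark the 15 bases that code for the motif.
Chl1: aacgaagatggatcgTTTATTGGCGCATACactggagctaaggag
L1cam: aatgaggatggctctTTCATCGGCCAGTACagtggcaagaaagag
Nrcam: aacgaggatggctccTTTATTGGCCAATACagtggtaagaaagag
Nfasc: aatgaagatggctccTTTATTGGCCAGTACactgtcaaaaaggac
The motif began at codon 1182 of 1209 in Chl1, 1227 of 1259 in L1cam, 1224 of 1256 in Nrcam and 1315 of 1347 in Nfasc, always near the end of the reading frame. Counted from the first capital, Chl1 differed from L1cam by C3T, C6T, C10G, A11C and G12A, Nrcam differed from it by C3T, C6T and G12A, and Nfasc by C3T and C6T. The changes C10G and A11C, in the same codon, were thus found in Chl1 alone of the 3. Neither NCAM gene held the motif in its longest reading frame.

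The deposited values were raw read counts, and levels are given as CPM, the count scaled to a common library size after TMM normalization. Library totals ran from 20990446 to 45632018 counts, and 17183 genes passed the filter on low counts. A count of 0 allows up to 3 counts, here 0.0656 to 0.144 CPM, for counting error only. Phf6 lay between 110 and 142 CPM in WT, between 15.4 and 23.96 in KO and between 183 and 278 in Tg. The 8 LSK markers summed to between 1806 and 2599 CPM in every group. Xist, transcribed from the inactive X chromosome, lay at 32.7 to 53.8 CPM of the unscaled library total in WT and KO and at 0.0307 to 0.297 in Tg. In 3 of 4 WT and 1 of 3 KO libraries Xist and 4 Y-linked genes were all above 1 CPM, and these 4 are called the mixed Xist/Y libraries. Whether each of them came from a single mouse is therefore uncertain, and the labels mention no pooling. In comparisons with Tg, genotype and this difference in sex-linked transcripts cannot be told apart.

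Chl1, the close homologue of L1 (chromosome 6, 103510586 to 103750211, plus strand, GRCm38), was about 11-fold higher in KO than in WT. WT replicates 1 to 4 held 0.890, 0.615, 0.444 and 0.623 CPM, from 13 to 28 counts. KO replicates 1 to 3 held 3.56, 10.6 and 7.14 CPM, from 163 to 354 counts. Every KO library thus lay above every WT library, and KO replicate 2 held the most and replicate 1 the least of the KO libraries. The means were 0.643 ± 0.184 CPM in WT (SD, n = 4) and 7.11 ± 3.53 in KO (SD, n = 3), a log2 fold change of 3.46 (SE 0.39). It lay between 3.05, without KO replicate 2, and 3.78, without KO replicate 1. Without the 4 mixed Xist/Y libraries it was 4.33, and only WT replicate 3 was then left to stand for WT.

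In Tg, Chl1 was low. Tg replicates 1 to 4 held 1.03, 0.620, 0.591 and 0.584 CPM, with a mean of 0.705 ± 0.214 (SD, n = 4), so that 3 of the 4 fell inside the WT range and replicate 1 lay above it. The log2 fold change against WT was 0.14 (95% interval -0.67 to 0.95; adjusted p = 0.868 in edgeR, quasi-likelihood test). Its sign was not stable, since it became -0.10 without Tg replicate 1 and -0.016 when WT replicate 3 was left out. Between Tg and KO the log2 fold change was -3.32 (SE 0.38), with all 4 Tg libraries below all 3 KO libraries. The KO and Tg comparisons share the WT libraries.

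**Figure D1:**
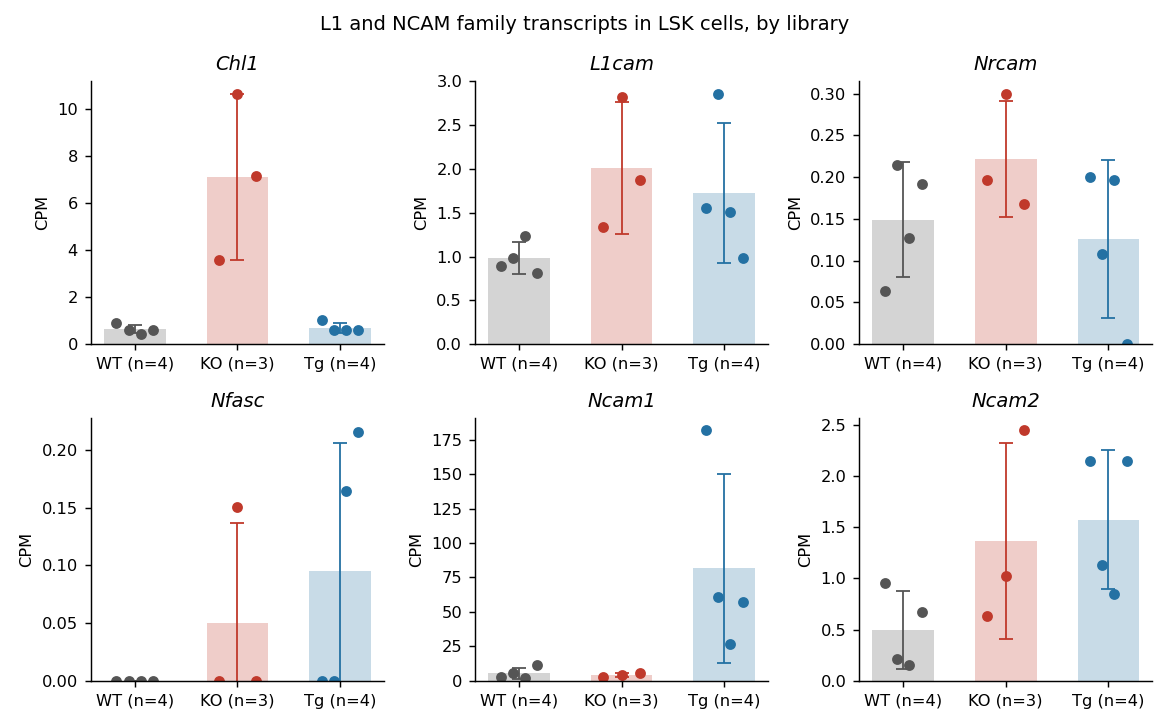
CPM (linear axes that start at 0 and differ between panels) of the 6 genes in WT, KO and Tg. Points are libraries, bars are means and error bars are SD, cut off at 0. Chl1 is high in the 3 KO libraries (3.56 to 10.6 CPM) and Ncam1 in the 4 Tg libraries (26.5 to 181.7 CPM), whereas Nrcam and Nfasc stay at or below 0.300 CPM.

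L1cam, the founder of the family (X chromosome, 73853778 to 73896105, minus strand), had higher means in both mutant groups than in WT, without passing the test. WT replicates 1 to 4 held 0.890, 0.984, 1.24 and 0.815 CPM. KO replicates 1 to 3 held 1.33, 2.82 and 1.88 CPM, all above WT, the lowest by little. Tg replicates 1 to 4 held 1.55, 2.86, 1.51 and 0.983 CPM, of which replicate 4 fell within the WT range. The means were 0.981 ± 0.184 CPM in WT (SD, n = 4), 2.01 ± 0.753 in KO (SD, n = 3) and 1.73 ± 0.798 in Tg (SD, n = 4). The log2 fold change was 1.03 in KO against WT (95% interval 0.20 to 1.85; adjusted p = 0.649 by edgeR) and 0.81 in Tg against WT (0.033 to 1.59; adjusted p = 0.209). Between Tg and KO it was -0.22 (-1.03 to 0.60; adjusted p = 0.798), and 0.11 without KO replicate 2.

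L1cam overlaps Arhgap4 on the same strand and Avpr2 on the other. Arhgap4 held up to 3511 counts in a library, far more than the 17 to 106 of L1cam, and the labels do not say how the counting treated reads in the shared stretch. The level of L1cam is uncertain for that reason. It is also X-linked like Phf6, so that the difference in Xist moves with it in Tg.

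The other 2 L1 genes were close to the limit of detection and did not pass the filter on low counts. Nrcam, which binds ankyrin and neuropilin 2 in neurons (chromosome 12, 44328885 to 44601964), had 2 to 7 counts per WT library, 5 to 10 per KO library and 0 to 8 per Tg library. Its means were 0.149 ± 0.068 CPM in WT, 0.222 ± 0.070 in KO and 0.126 ± 0.094 in Tg (SD), with overlap between the groups. Nfasc, which anchors the node of Ranvier (chromosome 1, 132564690 to 132741797), had no count in the 4 WT libraries. It had 5 counts in KO replicate 2, 5 in Tg replicate 3 and 7 in Tg replicate 4, and no count in the other 4 mutant libraries. At 3 counts allowed for a 0, no difference of Nfasc was detectable at this depth.

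Ncam1 (chromosome 9, 49502136 to 49798925, minus strand) was about 15-fold higher in Tg than in WT and was the most abundant member there. WT replicates 1 to 4 held 2.76, 5.53, 1.87 and 11.4 CPM. Tg replicates 1 to 4 held 181.7, 61.0, 26.5 and 57.2 CPM, from 807 to 7269 counts. The groups did not overlap, but replicate 1 stood far above the other Tg libraries and replicate 3 was the nearest to WT replicate 4, the highest of WT. The means were 5.39 ± 4.30 CPM in WT (SD, n = 4) and 81.6 ± 68.5 in Tg (SD, n = 4), a log2 fold change of 3.95 (SE 0.67). Leaving out Tg replicate 1 gave 3.18, and leaving out WT replicate 4 gave 4.59. Without the mixed Xist/Y libraries it was 5.44, with WT replicate 3, the lowest in Ncam1, as the only WT library left.

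In KO, Ncam1 did not differ detectably from WT, within a wide interval. KO replicates 1 to 3 held 2.65, 4.08 and 5.53 CPM, with a mean of 4.09 ± 1.44 (SD, n = 3), all inside the WT range. The log2 fold change against WT was -0.38 (95% interval -1.91 to 1.14; adjusted p = 0.939 by edgeR). Without WT replicate 4 its sign changed, to 0.25. Between Tg and KO the log2 fold change was 4.33 (SE 0.78), with all Tg libraries above all KO libraries. The gene spans an antisense gene, Gm11149, which held at most 5 counts in any library. GENCODE M21 lists 4 complete coding transcripts of Ncam1, with reading frames of 1815 to 2547 bases, and counts per gene do not tell them apart.

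Ncam2, the other NCAM gene, known from olfactory axons (chromosome 16, 81200697 to 81626828), was a low-level transcript with higher means in both mutant groups. WT replicates 1 to 4 held 0.953, 0.215, 0.159 and 0.671 CPM, and KO replicates 1 to 3 held 0.634, 1.02 and 2.45. Tg replicates 1 to 4 held 2.15, 1.13, 0.853 and 2.15 CPM. KO replicate 1 lay below WT replicates 1 and 4, and Tg replicate 3 lay below WT replicate 1, so both mutant groups overlapped WT. The log2 fold change was 1.45 in KO against WT (95% interval 0.031 to 2.87; adjusted p = 0.695 by edgeR) and 1.66 in Tg against WT (0.32 to 3.01; adjusted p = 0.140). Without KO replicate 3 the first was 0.72. Between Tg and KO it was 0.21 (-1.16 to 1.58; adjusted p = 0.891), and -0.14 without KO replicate 1.

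Counted together, 4 of the 6 genes passed the filter. In KO against WT none of the 3 members read with the test (L1cam, Ncam1, Ncam2) was called higher or lower by edgeR at an adjusted p under 0.05. Over all genes tested 0.00582% were called higher and 0.0175% lower in that comparison. In Tg against WT none of 3 (Chl1, L1cam, Ncam2) was called, where 2.54% of all genes were called higher and 2.39% lower. In Tg against KO neither of 2 (L1cam, Ncam2) was called, where 2.63% were called higher and 3.06% lower. At an unadjusted p under 0.05 there were 2 members (L1cam and Ncam2) in each of the comparisons with WT and 0 in Tg against KO. Of all genes tested, 7.09% passed that threshold in KO against WT, 22.1% in Tg against WT and 21.7% in Tg against KO. DESeq2 and limma-voom also called 0 in each. The p-values measure the spread between these libraries.

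**Figure D2:**
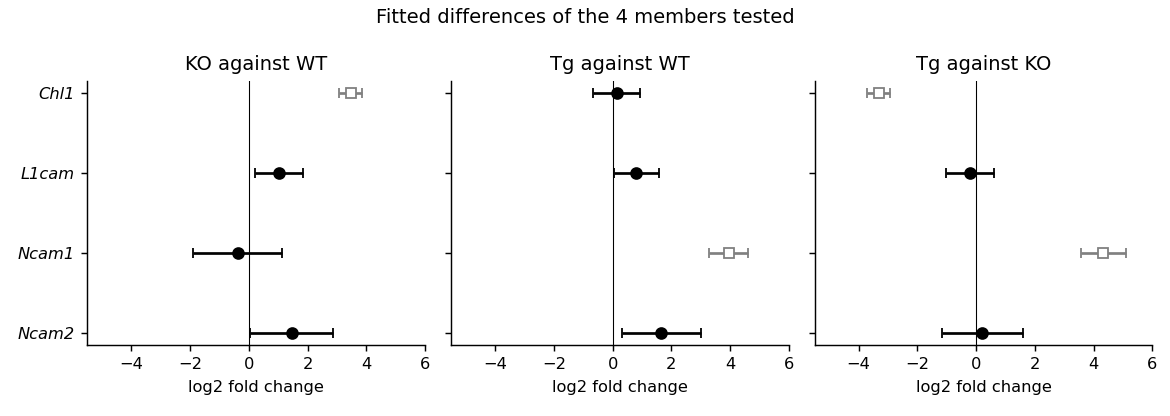
Log2 fold change of the 4 members that passed the filter, in each comparison. Filled circles with 95% intervals are values read with the test, and open squares with SE are descriptions of the genes chosen for these differences. The intervals of L1cam and Ncam2 lie just above 0 in both comparisons with WT (0.20 to 1.85 and 0.031 to 2.87 in KO), though neither gene passed over all genes.

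To compare genes with each other, CPM was divided by the length of each gene's merged exons. In WT the order per kilobase was Ncam1 (0.623 ± 0.497 CPM per kb), L1cam (0.134 ± 0.025), Chl1 (0.0523 ± 0.0150), Ncam2 (0.0441 ± 0.0335), Nrcam (0.0112 ± 0.0051) and Nfasc, at 0. The libraries of Chl1 and Ncam2 overlapped there, and so did those of Ncam2 and Nrcam. In KO Chl1 came first, at 0.578 ± 0.287 CPM per kb, and overlapped Ncam1 (0.472 ± 0.167) and L1cam (0.274 ± 0.102). Next came Ncam2 (0.121 ± 0.084), which overlapped L1cam, then Nrcam (0.0166 ± 0.0052) and Nfasc (0.0035 ± 0.0061). In Tg Ncam1 stood alone at 9.42 ± 7.91 CPM per kb, L1cam (0.235 ± 0.109) and Ncam2 (0.139 ± 0.060) overlapped, and Chl1 (0.0573 ± 0.0174) overlapped Ncam2. Nrcam (0.0094 ± 0.0071) and Nfasc (0.0067 ± 0.0079) overlapped at the bottom.

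The mix within the family shifted accordingly. Ncam1 made up 48.8% to 83.2% of the family's counts in WT libraries, 21.5% to 32.2% in KO and 88.9% to 97.4% in Tg. Chl1 made up 4.55% to 16% in WT, 41.6% to 55.9% in KO and 0.549% to 1.98% in Tg. In KO even the raised Chl1 remained a modest transcript: 40.6% of the genes tested had a lower mean CPM there, against 14.2% in WT. Ncam1 had 82.0% of the genes tested below it in Tg and 37.7% in WT, on the CPM scale, which does not correct for length.

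Markers of granulocyte-monocyte progenitors moved with Ncam1 in Tg. The sum of the 6 markers (Elane, Mpo, Prtn3, Ctsg, Ms4a3, Cebpe) was 1384 to 3515 CPM in WT, 3762 to 4884 in KO and 4829 to 24022 in Tg. All 6 were called higher in Tg against WT by edgeR, where 2.54% of all genes were called higher. In Tg against KO 3 of the 6 were called higher, where 2.63% of all genes were. Within Tg the sum was highest in replicate 1 (24022) and lowest in replicate 3 (4829), the libraries with the most and the least Ncam1. The part of these progenitors in the Ncam1 level was not tested, and in bulk RNA more cells of a type and more RNA per cell cannot be told apart. The sums in KO reached 4884 CPM, as high as Tg replicate 3. Most of each sum was Mpo, which reached 3833 CPM in KO and was at least 3451 in Tg. Each of the other markers was higher in every Tg library than in every KO library. Elane was at most 332 CPM in KO and at least 451 in Tg, and Ms4a3 at most 89.9 and at least 97.2. Ncam1 in KO did not exceed 5.53 CPM, against 26.5 in Tg replicate 3. Mature neutrophil markers summed to 9.48 to 104 CPM in WT, 30.3 to 65.2 in KO and 45.8 to 591 in Tg, with 0 of 6 called in Tg against WT by edgeR. The higher Tg sums were S100a8 (mean 18.3 CPM in WT and 236 in Tg) and S100a9 (20.4 and 67.6). Ltf, Ngp and Retnlg had lower means in Tg than in WT, and Camp was similar (5.10 and 5.75 CPM).

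**Figure D3:**
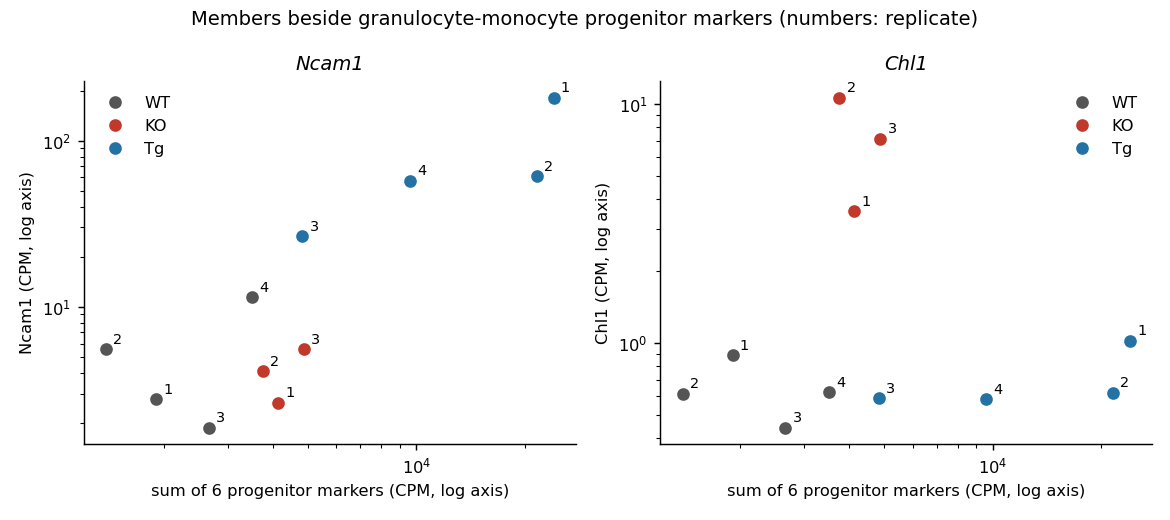
Ncam1 (left) and Chl1 (right) in CPM against the summed CPM of 6 granulocyte-monocyte progenitor markers, all on log axes. Each point is a library, numbered by replicate and coloured by group. Ncam1 lies between 26.5 and 181.7 CPM in the 4 Tg libraries and at 5.53 or below in the KO libraries, which have sums of 3762 to 4884 CPM. Chl1 is high only in the 3 KO libraries.

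Defining markers of neurons and glia, in which these genes are known to be abundant, were at or near 0. Of the 7 neuron markers Rbfox3 and Syt1 were at 0 in every library, Snap25 and Stmn2 had at most 3 counts, and the 7 summed to 0.539 to 1.57 CPM in WT, 0.670 to 1.20 in KO and 0.725 to 1.78 in Tg. Of the 7 Schwann cell and glia markers Sox10, S100b and Pmp2 were at 0 in every library. That list summed to 135 to 152 CPM in WT, 133 to 149 in KO and 121 to 144 in Tg, nearly all of it Mbp, which blood cells also transcribe. The 8 stromal and osteolineage markers summed to 63.8 to 100.7 CPM in WT, 101.9 to 106.1 in KO and 57.0 to 94.9 in Tg, most of it Pdgfrb, while Cxcl12 averaged 0.969 CPM in WT and 0.977 in KO. The KO sums of that list lay above every WT sum, by little over that of WT replicate 1 (100.7 CPM). In KO replicates 1 to 3 they were 105.0, 106.1 and 101.9 CPM, and Chl1 held 3.56, 10.6 and 7.14 CPM. The part of these markers in the Chl1 level was not tested. NK and innate lymphoid markers (7 genes) summed to 10.6 to 20.5 CPM in WT, 17.0 to 25.3 in KO and 2.43 to 6.24 in Tg. Of these 7 genes edgeR called 3 lower in Tg against WT, where 2.39% of all genes were called lower. The part of these markers in the Ncam1 level was not tested. Endothelial markers (6 genes) summed to 90.03 to 117 CPM in WT, 69.1 to 80.9 in KO and 123 to 139 in Tg. Most of each sum was Tie1 (mean 77.9 CPM in WT, 56.9 in KO and 109 in Tg). Cdh5, Kdr, Emcn, Plvap and Flt4 all had lower means in Tg than in WT. Megakaryocyte markers (4 genes) summed to 86.1 to 157 CPM in WT, 56.1 to 103 in KO and 148 to 224 in Tg. Most of each sum was Itga2b (mean 96.0 CPM in WT, 67.1 in KO and 154.5 in Tg). Pf4 and Ppbp had lower means in Tg than in WT, and Gp9 lay at 6.89 CPM in WT and 8.20 in Tg. The parts of the endothelial and megakaryocyte lists in the Ncam1 level of Tg were not tested. Monocyte and dendritic cell markers (6 genes) summed to 114.7 to 230 CPM in WT, 300.2 to 503 in KO and 66.6 to 152 in Tg. The KO sums lay above the WT sums, mostly through Ccr2 (mean 124 CPM in WT and 299 in KO) and Csf1r (37.2 and 86.4). Cx3cr1 (6.27 and 16.5) and Ly86 (10.1 and 20.3) also had higher means in KO, while Siglech lay at 1.11 and 1.29. In KO replicates 1 to 3 the sums were 300.2, 503 and 467 CPM, beside Chl1 at 3.56, 10.6 and 7.14 CPM. None of the 5 markers tested was called by edgeR in KO against WT, and their part in the Chl1 level was not tested.

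On the chromosome, Chl1 lies between the contactin genes Cntn3, 937 kb before it, and Cntn6, 743 kb after it. Cntn3 had at most 5 counts in a library and Cntn6 none in any. Beside Ncam1, Ttc12, 15.9 kb away, lay at 1.64 ± 0.40 CPM in WT, 1.54 ± 0.27 in KO and 2.81 ± 0.38 in Tg (log2 fold change Tg against WT 0.78, SE 0.24, adjusted p = 0.0880 by edgeR). On the other side Rpl10-ps3 had at most 10 counts in a library. The genes that overlap Chl1 had at most 7 counts in any library.

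Of 111 genes of partners and related adhesion molecules, 84 were tested. In KO against WT edgeR called none, with 12 at an unadjusted p under 0.05, where 7.09% of all genes passed. DESeq2 called 2 of them, among 98 genes in all. The median log2 fold change over the 84 was -0.09, against -0.01 over all genes. In Tg against WT edgeR called 4 higher and 2 lower (median 0.07 against 0.01), and in Tg against KO 5 higher and 3 lower (median 0.12 against 0.01). Over all genes 2.54% were called higher and 2.39% lower in the first, and 2.63% higher and 3.06% lower in the second. The partner genes called lower were near these shares, and those called higher were above them, on few genes. Without the mixed Xist/Y libraries 0 of the 6 calls in Tg against WT were made and 4 genes were called in Tg against KO.

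Among the semaphorin receptors and ligands, with which L1 proteins work in axons, 7 of 9 genes were tested, and both neuropilins were called in 1 comparison each. Nrp1, a co-receptor of L1 and CHL1, lay at 13.6 ± 2.53 CPM in WT, 24.7 ± 2.61 in KO and 8.69 ± 2.05 in Tg (SD, as for all levels below). It was lower in Tg than in KO by a log2 fold change of -1.51 (SE 0.21, adjusted p = 0.00307 by edgeR). In KO against WT its log2 fold change of 0.86 (SE 0.21) had an adjusted p of 0.341 in edgeR, and it was 1 of the 2 genes that DESeq2 called. Nrp2, the partner of NrCAM, rose in Tg over WT by 1.27 (SE 0.24, adjusted p = 0.0165), from 2.18 ± 0.47 to 5.25 ± 1.16 CPM. The call of Nrp2 was lost without Tg replicate 1 (adjusted p = 0.0547 by edgeR) and in a fit with the replicate number as a block.

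Of the 7 growth factor receptors and ligands that engage NCAM or L1, 4 were tested. Fgfr1, a receptor that both families can activate, lay at 19.9 ± 2.37 CPM in WT, 11.9 ± 0.83 in KO and 23.7 ± 3.95 in Tg. It was higher in Tg than in KO by 0.99 (SE 0.15, adjusted p = 0.00420 by edgeR). Fgfr1 was the other gene that DESeq2 called in KO against WT, where edgeR gave -0.74 (SE 0.14, adjusted p = 0.294). Gfra1, the GDNF receptor that also binds NCAM, was lower in Tg than in WT by a log2 fold change of -2.83 (SE 0.68, adjusted p = 0.0378), from 16.8 ± 13.2 to 2.36 ± 1.52 CPM. WT held Gfra1 at 4.35 to 33.8 CPM, and leaving out 1 of the 11 libraries ended its call for 8 of them (adjusted p up to 0.120, without Tg replicate 1). Gfra1 was not called by limma-voom or in a fit of only the 2 groups either.

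Of the 11 sheddases and gamma-secretase genes, all tested, Bace1 was called. Bace1, the protease that cuts CHL1 among other substrates, rose in Tg from 40.3 ± 8.63 CPM in WT to 83.5 ± 14.3 (log2 fold change 1.05, SE 0.17, adjusted p = 0.0110 by edgeR). In KO it lay at 38.8 ± 6.11 CPM, below Tg by a log2 difference of 1.11 (SE 0.19, adjusted p = 0.00843). Both calls held without each of the 11 libraries in turn.

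Of 8 signalling genes 7 were tested, and Fyn, a kinase downstream of NCAM, was called lower. In Tg it fell by 0.47 from WT (SE 0.079, adjusted p = 0.0127 by edgeR), from 70.2 ± 5.88 to 50.7 ± 4.26 CPM. Against the KO mean of 79.6 ± 1.44 CPM it was lower by a log2 fold change of -0.65 (SE 0.085, adjusted p = 0.00254). Both calls held without each library in turn.

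Of the 8 contactins and contactin-associated genes only 2 were tested. Cntnap1, the partner of contactin and neurofascin beside nodes of Ranvier, was higher in Tg than in WT by 1.87 (SE 0.40, adjusted p = 0.0263 by edgeR), from 0.862 ± 0.324 to 3.12 ± 1.55 CPM. Leaving out any 1 of 4 libraries ended that call (highest adjusted p 0.0822, when Tg replicate 1 was left out). Limma-voom, a fit of only the 2 groups and the fit with the replicate block ended it too. All 11 cytoskeletal anchors were tested, and Msn, the ERM protein moesin, was lower in Tg than in KO (-0.39, SE 0.083, adjusted p = 0.0239 by edgeR). The call of Msn ended without any 1 of 5 libraries (up to 0.108, without KO replicate 1) and with the replicate block. Of 13 extracellular partners 11 were tested, and the integrin gene Itgb3 was higher in Tg than in KO (1.30, SE 0.33, adjusted p = 0.0419 by edgeR). Its call ended without any 1 of 8 libraries (up to 0.150, without KO replicate 2). A fit of only the 2 groups and the fit with the replicate block ended it too. The glycan enzymes, which add polysialic acid and HNK-1 to NCAM, had 3 of 6 genes tested, with 0 called by edgeR and 0 at an unadjusted p under 0.05 in each comparison. Among them St8sia4, a polysialyltransferase, had a log2 fold change of -0.20 in Tg against WT (SE 0.098, adjusted p = 0.266).

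Of 38 other adhesion molecules of the immunoglobulin superfamily 28 were tested. In KO 5 of the 28 were higher than WT and the median was -0.30 on the log2 scale, with 7 at an unadjusted p under 0.05, which 7.09% of all genes passed. EdgeR called none. Esam, an adhesion molecule of endothelium and stem cells, rose in Tg from 22.3 ± 3.54 CPM in WT to 37.2 ± 8.66 (log2 fold change 0.73, SE 0.17, adjusted p = 0.0345 by edgeR). Leaving out any 1 of 7 libraries ended that call (highest adjusted p 0.107, when Tg replicate 1 was left out). Against KO, at 17.0 ± 1.99 CPM, Esam was higher in Tg by 1.13 (SE 0.19, adjusted p = 0.00797), which held without each library in turn. Nectin3 was higher in Tg than in KO (1.53, SE 0.34, adjusted p = 0.0282), a call that ended without any 1 of 5 libraries (up to 0.116, without KO replicate 2).

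**Figure D4:**
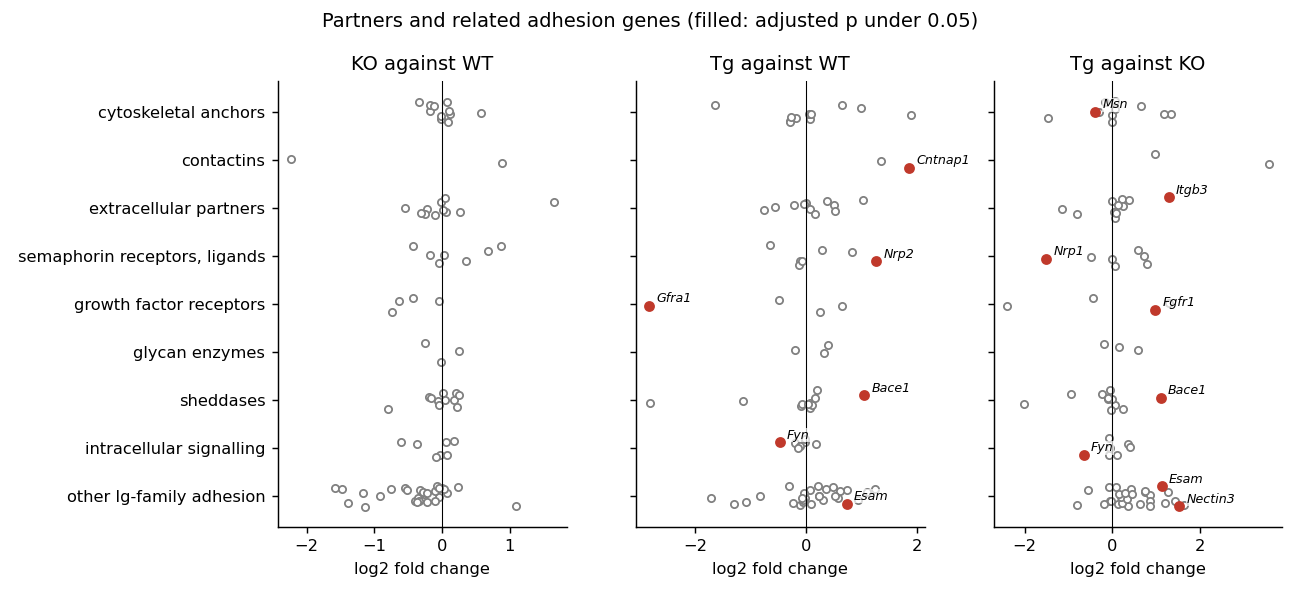
Log2 fold changes of the 84 tested genes of partners and related adhesion molecules, by list and comparison (the horizontal axes differ between panels, and vertical scatter within a list has no meaning). Filled, named points passed an adjusted p under 0.05 in edgeR: 0 in KO against WT, 6 in Tg against WT and 8 in Tg against KO.

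The genes most alike to Chl1 and Ncam1 were found by the Pearson correlation of log2 CPM over the 11 libraries, among the 11926 tested genes averaging at least 1 CPM. For Chl1 they were Icos (r = 0.91), Chchd7 (0.90), Hemk1 (0.89), Filip1 (0.89) and B9d1 (0.89). Icos, a costimulatory receptor of T cells, lay at 1.70 ± 0.66 CPM in WT, 5.08 ± 1.34 in KO and 1.27 ± 0.32 in Tg. Hemk1, a methyltransferase gene, lay at 7.38 ± 1.46, 17.3 ± 8.82 and 8.27 ± 2.01 CPM. Once each group's mean was removed, r with Chl1 was 0.85 for Hemk1 and 0.84 for Chchd7, but 0.52 for Icos and 0.36 for Filip1. The likeness of the latter pair to Chl1 thus lay mainly between the groups.

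For Ncam1 the most alike were Chst13 (r = 0.98), Gda (0.98), Cask (0.98) and Sncaip (0.98). Chst13, a chondroitin sulfotransferase gene, lay at 1.80 ± 1.42 CPM in WT, 1.40 ± 0.25 in KO and 15.7 ± 11.7 in Tg. Gda, the guanine deaminase, lay at 20.4 ± 10.2, 24.3 ± 5.14 and 219 ± 132 CPM. With group means removed, r was between 0.88 and 0.93 for these 4 genes, so that they followed Ncam1 within groups as well. These correlations are a description: the 11 libraries fall into groups, and all genes share the depth of their library.

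**Figure D5:**
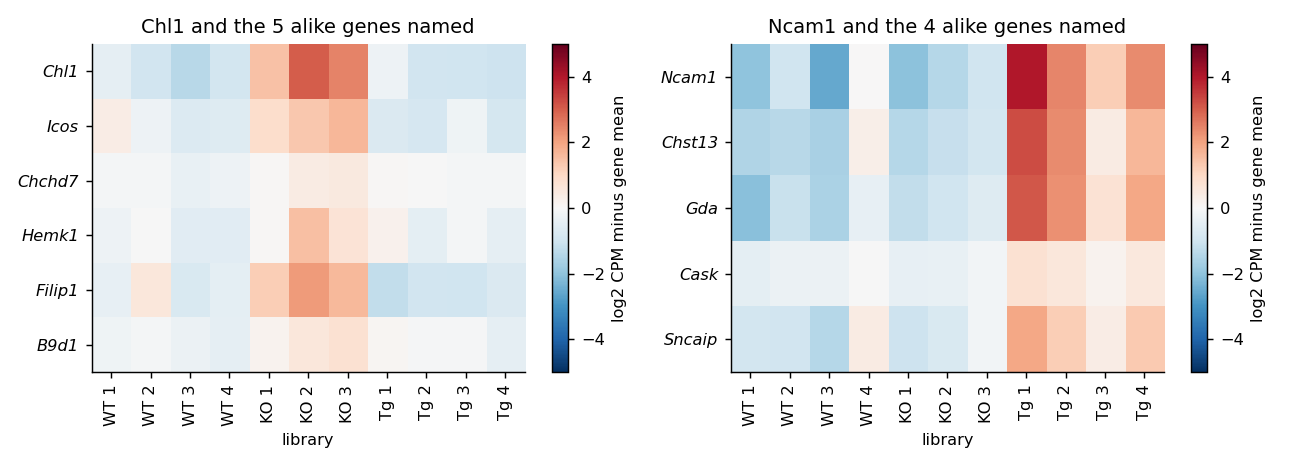
Log2 CPM minus the gene's mean over the 11 libraries (colour) for Chl1 and Ncam1, with the 5 genes named as alike to Chl1 and the 4 named as alike to Ncam1. Columns are libraries by group and replicate. Chl1 is highest in the 3 KO libraries and Ncam1 in the 4 Tg libraries, most in Tg replicate 1. Of the genes alike to Chl1, Hemk1 and Chchd7 are raised mainly in KO replicates 2 and 3, and of those alike to Ncam1, Sncaip overlaps between Tg replicate 3 and WT replicate 4.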

How the data were processed

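RNA of LSK cells was sequenced as paired reads in 11 libraries. Per the submitters' processing notes, FastQC, Trimmomatic, STAR and HTSeq were used with mm10. Their versions, the annotation and the strand setting were not given in the sources used here. Raw counts of reads for each symbol were deposited by the authors.

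All 11 libraries were fitted together in edgeR 4.0.16 (R 4.3.3; TMM, filterByExpr on the group, no covariate) with the quasi-likelihood test, Benjamini-Hochberg adjustment over 17183 genes and calls at an adjusted p under 0.05. SE was log2 fold change over the root of F, and 95% intervals from the t distribution. CPM values use TMM-scaled totals. Alternatives were DESeq2 1.42.0, limma-voom (limma 3.58.1), other scalings and filters, fits of 2 groups, a replicate block and each library left out. One, leaving out the 4 mixed Xist/Y libraries, was chosen after seeing the data. The fit was tested on simulated data. Annotation was GENCODE M21 (GRCm38, the assembly of mm10). Figures used matplotlib 3.10.9.

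The members and gene lists were chosen with earlier results of these data known. The genes named were the members, Phf6, called genes of the partner lists, the nearest coding neighbours, overlapping genes, and the 5 genes most alike to Chl1 and to Ncam1 without predicted models, 1 of which is not reported here. St8sia4 and marker genes were named after their values were seen.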

Additional observations from a re-analysis of the deposited data

Results flagged for a closer look

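Chl1 in Tg replicate 1, at 1.03 CPM, stood apart from the other Tg libraries (0.584 to 0.620 CPM): the gap to the next library was 0.917 of the group's range, above the Dixon limit of 0.829 for 4 samples. This was 1 of 11 groups of 4 libraries read, and chance flags about 1 in 20.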

How the results depend on the processing

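Leaving out 1 library at a time gave 1 to 4 called genes in KO against WT (4 in all libraries), 211 to 1076 in Tg against WT (846) and 287 to 1096 in Tg against KO (978), and 0 members in each. DESeq2 called 98, 1912 and 1922 genes in that order. Limma-voom called 1 in KO against WT, and fits of only the 2 groups called 1 in KO against WT and 358 in Tg against WT. With the replicate number as a replicate block, 1, 221 and 303 genes were called. Same-numbered libraries did not deviate together (r from -0.245 to 0.0959). With so few libraries per group this cannot exclude that the numbers mark pairs or batches. Without the mixed Xist/Y libraries 20 genes were called in Tg against WT and 364 in Tg against KO. Called partner genes were 6 in Tg against WT (13 by DESeq2, 3 in the fit of 2 groups, 2 with the block, 0 without the mixed libraries) and 8 in Tg against KO (15 by DESeq2, 5 with the block, 4 without those libraries). Log2 fold changes that changed sign were those of Ncam1 in KO against WT (0.10 with the block, 0.25 without WT replicate 4, 1.37 without the mixed libraries), Chl1 in Tg against WT (-0.016 without WT replicate 3, -0.10 without Tg replicate 1), L1cam in Tg against KO (0.11 without KO replicate 2) and Ncam2 in Tg against KO (-0.15 with the block, -0.14 without KO replicate 1, -0.14 without the mixed libraries). Without 1 library at a time these ran from -0.68 to 0.25, -0.10 to 0.33, -0.57 to 0.11 and -0.14 to 0.93 in that order. The cause was not tested. None of these 4 had passed the test, and no member read with the test passed under any alternative. L1cam gave no value under the stricter filter, which removes it. Counts of 0 to 10 per library limit Nrcam and Nfasc.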

Other observations

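The RefSeq promoter table (GRCm38.p6) held 5 of the 6 members, with windows from 250 bases before to 50 after a start. It lacked Ncam1, the most abundant member per kilobase in WT and Tg. The window of Chl1 began at 103510626, inside the gene as annotated in GENCODE M21 (start 103510586), so it may miss the promoter there. The window of Chl1 held 13 CpG dinucleotides, those of L1cam 22 and 25, those of Nfasc 3 and 7, that of Nrcam 37 and that of Ncam2 41, where the median over 32544 windows was 7. Of all windows, 61.8% held fewer CpG than that of Chl1, 94.4% fewer than that of Nrcam and 96.5% fewer than that of Ncam2. Nrcam, with one of the richer windows, was thus among the least abundant members per kilobase. Among the 5 members with a window, the number of CpG did not follow the order of levels.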
